A study of Mus musculus with 10 samples.

Results

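The nuclear genes of oxidative phosphorylation were examined in mouse liver: subunits of complexes I to V that are encoded in the nucleus, chosen by symbol, together with assembly factors of complexes I and II that share their symbols. The choice by symbol leaves out Cyc1 of complex III. Members were the rows of the deposited count table that are protein-coding in GENCODE mouse M21, with a symbol starting Ndufa, Ndufb, Ndufc, Ndufs, Ndufv, Sdh, Uqcr, Cox4, Cox5, Cox6, Cox7, Cox8 or Atp5 and at least 1000 counts summed over the 10 libraries. Of 46071 rows, 97 had such a symbol and 89 reached the minimum. The 89 comprised 36 subunits of complex I, 4 of complex II, 7 of complex III, 12 of complex IV and 16 of complex V, 12 assembly factors (Ndufaf1 to Ndufaf8 and Sdhaf1 to Sdhaf4), the supercomplex factor Cox7a2l, and Atp5s, which is not a subunit. All 89 passed the filter on low counts that precedes the tests. Just inside the minimum were Cox7a1 with 1449 counts and Atp5s with 1658, and just outside it was Cox8b with 658. Without ML 9, Cox7a1 had 498 counts, and the counts and medians over all members and over complex IV include it. The 89 members lie on 19 chromosomes, and their protein-coding sequence is short, with a median of 432 bases and a range of 156 (Atp5e) to 2181 (Ndufs1).

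The libraries were made from polyadenylated liver RNA of offspring grouped by the parents' genotype. FL offspring (3 libraries, FL 5, FL 6 and FL 7) had a LIRKO father (IRlox/lox; Albumin-Cre+/-), crossed with a control female; its albumin promoter drives Cre, which removes the floxed insulin receptor from hepatocytes. ML offspring (3 libraries, ML 8, ML 9 and ML 10) came from the opposite cross, a LIRKO female with a control male. Control offspring (4 libraries, controls 1 to 4) had 2 control parents (IRlox/lox; Albumin-Cre-/-) from a line crossed for 4 generations to limit any memory of Cre, so that the floxed receptor is shared by the parents of every group. The offspring's own genotype, sex and age are not given in the labels, nor is it stated that each library came from its own animal. The p-values then measure only the spread between these libraries.

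Oxidative phosphorylation takes place in the inner mitochondrial membrane. Complexes I and II pass electrons from NADH and succinate to ubiquinone, complex III passes them to cytochrome c and complex IV to oxygen, and complex V uses the resulting proton gradient to make ATP. Most subunits are encoded in the nucleus and imported, while a small set is made from the mitochondrial genome, and hepatocytes, which carry many mitochondria, use the pathway to supply gluconeogenesis and urea synthesis. Nuclear respiratory factor 1 (NRF1) and ETS-family factors of the GABP type are known to bind promoters of many of these genes.

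One promoter per complex is shown as an example, each holding one of the motifs named for those factors. Among subunits with a match in the bases shown, those with the NRF1 core were put before those with the ETS core alone. Within these the lowest unadjusted p in ML against control decided, so the choice is not independent of the expression values. Each line gives the 150 bases before the RefSeq transcription start on GRCm38.p6, read 5′ to 3′ on the gene's strand, with capitals for the NRF1 core GCGCATGC (Ndufa11, Sdhb and Atp5k) or the ETS core CCGGAAG (Uqcrh and Cox6b1), on either strand and with overlapping NRF1 matches joined.
Ndufa11, complex I, chr17:56717612-56717761, plus strand: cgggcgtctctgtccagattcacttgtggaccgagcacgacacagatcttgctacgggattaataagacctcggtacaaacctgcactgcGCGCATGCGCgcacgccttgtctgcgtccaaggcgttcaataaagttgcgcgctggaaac
Sdhb, complex II, chr4:140961121-140961270, plus strand: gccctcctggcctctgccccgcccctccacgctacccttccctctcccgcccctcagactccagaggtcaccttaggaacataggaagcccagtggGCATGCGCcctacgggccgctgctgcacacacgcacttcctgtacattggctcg
Uqcrh, complex III, chr4:116075071-116075220, minus strand: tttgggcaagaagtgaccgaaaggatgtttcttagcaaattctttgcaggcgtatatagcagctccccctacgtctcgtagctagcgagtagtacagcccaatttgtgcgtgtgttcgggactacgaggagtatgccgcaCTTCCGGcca
Cox6b1, complex IV, chr7:30626115-30626264, minus strand: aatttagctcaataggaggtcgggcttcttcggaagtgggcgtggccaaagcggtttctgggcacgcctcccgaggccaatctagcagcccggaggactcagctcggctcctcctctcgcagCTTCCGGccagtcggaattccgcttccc
Atp5k, complex V, chr5:108434400-108434549, minus strand: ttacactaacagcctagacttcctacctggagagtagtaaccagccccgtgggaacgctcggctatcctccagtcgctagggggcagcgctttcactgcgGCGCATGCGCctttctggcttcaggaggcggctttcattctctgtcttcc

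In the 250 bases before the start, the NRF1 core was present in 9 of the 76 members matched to the RefSeq promoter table, or 11.8%, against 4.35% of 10247 tested coding genes. The ETS core was present in 15 members, or 19.7%, against 13.4% of those genes. Atp5l and Cox6a1 held both cores. A CCAAT box (CCAAT) was present in 43.4% of members against 36.5%, the YY1 core GCCATNTT in 7.9% against 4.33%, and TATAAA in 6.58% against 6.72%. These are matches of letters on both strands in 1 window per gene, not binding sites. The window was the one nearest the principal transcript's start for members and the first listed for all genes. Over all 13105 windows of those genes, the NRF1 core was present in 4.04% and the ETS core in 12.7%. For 13 of the 89 members another counted gene elsewhere in the genome matched most of the mRNA at 95% identity or more, and these genes held at most 4.53% of the member's own count (Atp5l). Of the 89, 16, among them Atp5j, Cox4i1 and Ndufs1, share sequence with a counted gene that overlaps them on the genome, and how such reads were assigned is not given in the sources used here. Over all shared stretches, short ones and overlapping neighbours included, the other genes held over 10% of the member's own count for Atp5j, Ndufb11, Ndufb5, Ndufc1 and Ndufaf7, whose counts are uncertain.

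Each library held 18655506 to 39379940 counts in all. Control 1 and ML 9 stood apart from the other 8 libraries before any comparison of groups. Genes with an mRNA under 1000 bases lay above the mean of the controls by a median of 1.40 in ML 9 and 0.49 in control 1 on the log2 scale, and within -0.31 to 0.34 in the other libraries. The 9 hepatocyte markers had counts in all 10 libraries, but their levels split in ML 9, where Tat had 193 CPM against 634 to 4816 CPM elsewhere and Apoa1 had 32770 CPM against 4912 to 11440 CPM. Hnf4a had 237.5 CPM in ML 9 and 206 CPM in control 1, against 412 to 984 CPM elsewhere. Of 6 muscle markers, ML 9 had counts on 5, with Myh6 at 0 and a summed level of 159 CPM, and their summed level was 0.33 to 0.81 CPM in FL, 0.65 to 0.79 CPM in ML 8 and ML 10 and 0.33 to 1.054 CPM in controls. The 7 erythroid markers summed to 2115 CPM in ML 9, 313 and 382 CPM in ML 8 and ML 10, 127 to 249.5 CPM in FL and 184 to 626 CPM in controls, with control 1 the highest control. Within this list control 1 was the highest control for Hbb-bs, at 406.5 CPM, and the lowest for Alas2, at 106.7 CPM. Kupffer cell markers summed to 886 CPM in ML 9 and 384 CPM in control 1, against 191 to 316 CPM elsewhere, and B cell markers to 9.59 and 5.36 CPM, against 0.688 to 2.58 CPM. The Kupffer cell markers did not move as one in control 1. Clec4f and Cd5l had 182 and 149 CPM there, while Cd68 and Marco, at 3.70 and 1.08 CPM, were at their lowest of all libraries. The T and NK cell markers summed to 12.8 CPM in ML 9 and to 3.16 to 5.64 CPM in each other library. Cd3d had 5.61 CPM in ML 9 against 0.148 to 0.814 CPM elsewhere, and Cd3g, Cd8a, Nkg7, Ncr1 and Klrb1c were also highest there. Cd3e and Cd4, at 0.326 and 1.24 CPM in ML 9, lay among the other libraries. Sinusoidal endothelial markers summed to 195.5 CPM in ML 9 against 82.6 to 148 CPM elsewhere. Of these only Clec4g was highest in ML 9, at 108.9 CPM against 22.3 to 56.5 CPM elsewhere. Stab2, Lyve1, Pecam1 and Kdr, at 34.3, 7.43, 10.2 and 34.7 CPM in ML 9, lay among the other libraries. The sum of the cholangiocyte markers was lowest in ML 9, at 21.4 CPM against 28.7 to 68.6 CPM elsewhere, but the markers did not move as one. Spp1 had 12.98 CPM in ML 9 against 22.2 to 53.6 CPM elsewhere, while Epcam and Sox9, at 0.913 and 1.83 CPM, lay among the other libraries. Krt19 had 11.6 CPM in ML 8 and 3.72 CPM in ML 9, against 0.285 to 1.96 CPM elsewhere. Krt7 had 3.05 CPM in ML 8 and 1.96 CPM in ML 9, against 0.331 to 1.0 CPM elsewhere. The part of these cell types in the values of the members was not tested. Brown adipocyte markers (Ucp1, Cidea and Adipoq) summed to 12.5 CPM in control 3 and to at most 2.81 CPM in each other library. The comparisons are therefore given with all 10 libraries and again without control 1 and ML 9 (without the pair), which leaves 3 FL, 2 ML and 3 control libraries.

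The members took 1.242, 1.501 and 1.65% of counts in FL, 1.84, 3.87 and 2.09% in ML, and 2.52, 1.26, 1.29 and 1.47% in controls. ML 9 was the highest library for 78 of the 89 members, and FL 5 was the lowest for 74. Set against the mean of controls 2 to 4, the median member stood at 0.825-fold in FL 5, 1.12-fold in FL 6, 1.25-fold in FL 7, 1.37-fold in ML 8, 5.58-fold in ML 9, 1.98-fold in ML 10 and 2.31-fold in control 1. The members kept close to each other in most libraries: the SD across members of the log2 deviation from the control mean was 0.15 to 0.27 in the 3 FL libraries, ML 8, ML 10 and controls 2 to 4, against 1.045 in ML 9 and 0.51 in control 1. ML 8 was above controls 2 to 4 for 78 members and ML 10 for 88, while FL 5 was below these 3 controls for 77, FL 6 above them for 70 and FL 7 above them for 76. The 3 FL libraries thus lay on both sides of controls 2 to 4. These orders were counted over the members only, and their share over all genes was not counted. Over all tested genes with an mRNA under 1000 bases, the median log2 deviation from the control mean was -0.31, -0.06 and -0.03 in FL. In ML it was 0.08, 1.40 and 0.34. For members of that length these were -0.65, -0.14 and 0.0038 in FL, and 0.19, 2.44 and 0.69 in ML. The tested genes of that length include non-coding ones and were not matched to the members on coding length.

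**Figure D1:**
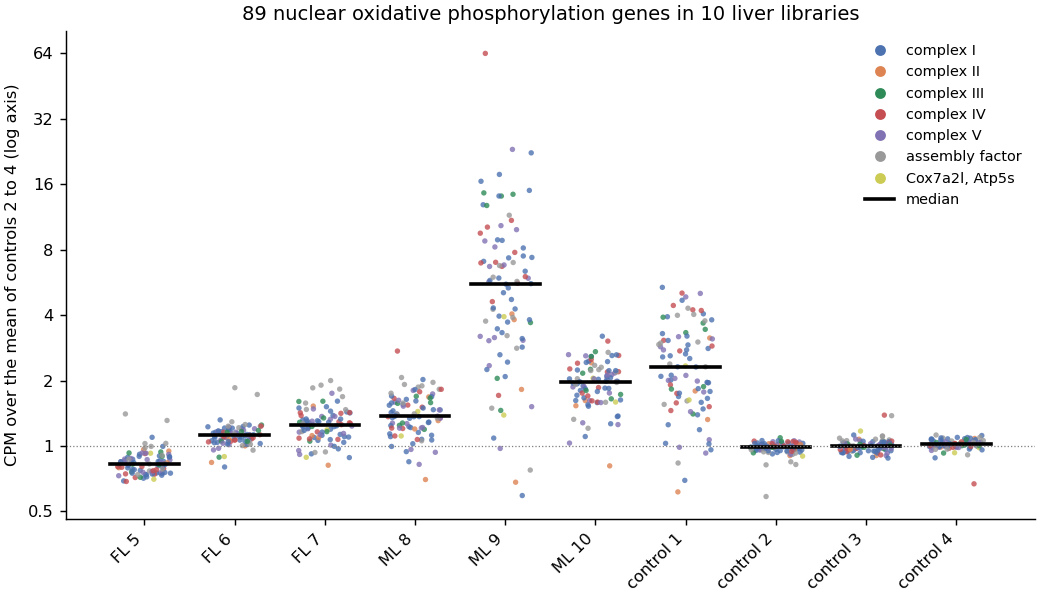
Each point is 1 of 89 genes, plotted as its CPM in a library over its mean in controls 2 to 4 (log axis), with colours for the complexes and bars for the median of each library. The medians of ML 8, ML 9 and ML 10 lie at 1.37, 5.58 and 1.98, those of the FL libraries at 0.825, 1.12 and 1.25, and control 1 at 2.31.

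In FL livers against control livers, no member passed an adjusted p of 0.05, which 0.0135% of the 14820 genes tested passed. The lowest edgeR adjusted p of a member was 0.9997, and DESeq2 also called none. Of the 89 members, 84 lay below 0, at a median log2 fold change of -0.29, against a median of -0.05 over all genes tested. None had an unadjusted p under 0.05 in the lower direction, where 1.9% of genes did, and 2 (Atp5a1 and Atp5s) lay below every control without overlap, where 2.92% of genes did. In bulk tissue, fewer cells of a type and less RNA per cell cannot be told apart.

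The direction in FL rested on control 1. Without control 1 and ML 9 the median was 0.10, 73 of 89 members lay above 0, and the median over all genes was -0.0007. Again no member passed the adjusted threshold, passed by 0.0197% of the 15223 genes tested, and the lowest edgeR adjusted p of a member was 0.461. Then 2 members, Ndufaf4 and Sdhaf2, had an unadjusted p under 0.05 and were higher, as were 3.23% of genes, and the same 2 lay above controls 2 to 4 without overlap, as did 5.87% of genes. Without control 1 alone, the median was 0.09.

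In ML livers against control livers, 86 of the 89 members lay above 0, at a median log2 fold change of 1.07 (2.10-fold), against -0.05 over all genes. No member passed the adjusted threshold, nor did any other gene (0.0%), and the lowest edgeR adjusted p of a member was 0.301. An unadjusted p under 0.05 in the higher direction was found for 50 members, against 8.81% of genes. No member lay above all 4 controls without overlap, as 2.17% of genes did. Control 1 lay above ML 8 for 84 members and above ML 10 for 64, and for the other 5 members (Sdha, Ndufa10, Ndufaf1, Atp5b and Ndufs1) ML 8 lay below at least 1 of controls 2 to 4. DESeq2 also called none, with a lowest adjusted p of 0.139.

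These counts depended on the same 2 libraries. Without ML 9 alone, the median was 0.32 and no member had an unadjusted p under 0.05 in the higher direction, as 0.928% of genes did. Without control 1 alone, the median was 1.56 and the number was 79, against 18.1% of genes, with a lowest edgeR adjusted p of 0.0600. Without both, the median was 0.74 and 86 of 89 members lay above 0. Then 68 had an unadjusted p under 0.05 and were higher, against 12.4% of genes, and 78 lay above controls 2 to 4 without overlap, against 23.7% of genes. None passed the adjusted threshold, which 0.0% of genes passed, and the lowest edgeR adjusted p was 0.0954.

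**Figure D2:**
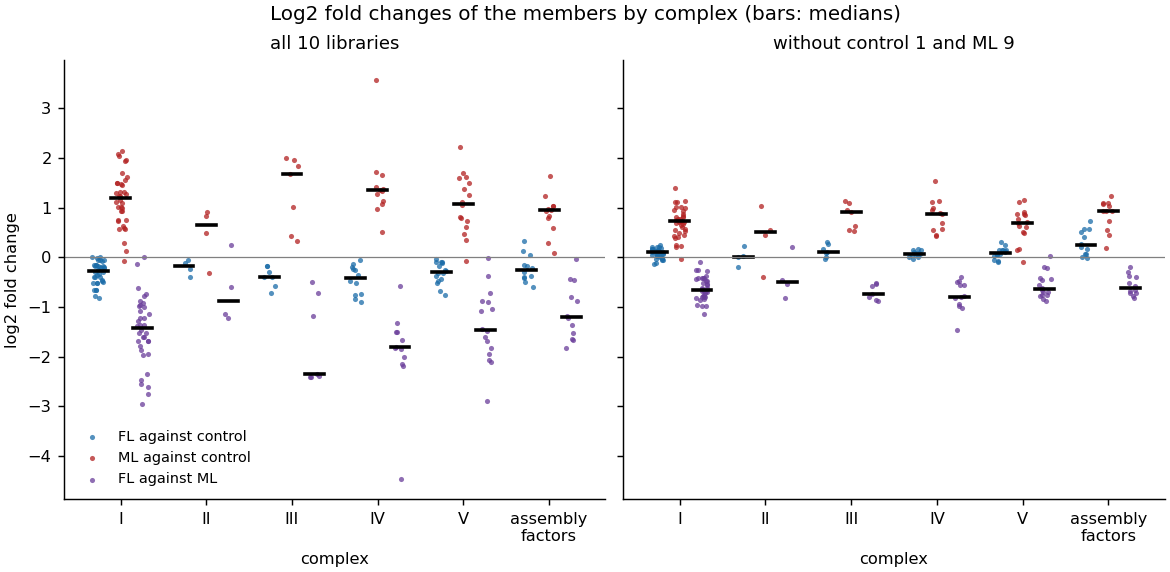
Each point is the log2 fold change of 1 gene in FL against control (blue), ML against control (red) or FL against ML (purple), by complex, with bars for medians, from all 10 libraries (left) and without control 1 and ML 9 (right). For ML against control the medians lie between 0.66 (complex II) and 1.68 (complex III) on the left and between 0.50 (complex II) and 0.94 (assembly factors) on the right.

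Complex I, the NADH dehydrogenase, had 36 members, of which 35 lay above 0 in ML, at a median of 1.19, and 34 lay below 0 in FL, at a median of -0.28. Without control 1 and ML 9 these medians were 0.72 in ML and 0.10 in FL. The 7 core subunits, which hold the flavin and iron-sulfur centres, had a median of 0.74 in ML, and the 29 accessory subunits had 1.24; without the pair these were 0.44 and 0.75. In ML, 23 of the 36 had an unadjusted p under 0.05 and were higher, against 8.81% of all genes, and 31 lay above controls 2 to 4 without overlap when the pair was left out, against 23.7% of all genes.

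Ndufb9, an accessory subunit (ENSMUSG00000022354, chr15:58933756-58939488, GRCm38), had the highest length-scaled level of complex I, 887 CPM per kilobase of mRNA over the 10 libraries. It stood at 163, 241 and 313 CPM in FL, 367, 3240 and 564 CPM in ML, and 711, 212, 209 and 229 CPM in controls. ML 9 and control 1 were its highest libraries, and every ML library lay above every FL library. In ML against control it differed by a log2 fold change of 2.03 (SE 0.71; edgeR adjusted p 0.301), and by 1.11 (SE 0.29; adjusted p 0.0954) without the pair.

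The accessory subunit Ndufa3 (ENSMUSG00000035674, chr7:3617373-3620327) had the lowest p of complex I in ML. It stood at 59.0, 91.1 and 86.5 CPM in FL, 86.9, 580 and 144 CPM in ML, and 117, 81.2, 69.2 and 85.7 CPM in controls, so that ML 8 lay among the controls. The fit gave a log2 fold change of 1.62 in ML (SE 0.53), and 0.56 (SE 0.27) without the pair. Ndufb7, an accessory subunit of the membrane arm, had 1.96 (SE 0.67) in ML, and 0.87 (SE 0.27) without the pair. Ndufc2, also an accessory subunit, had the lowest p of complex I in FL at -0.67 (SE 0.49), and 0.10 without the pair, where control 1 had 261 CPM and the other controls 65.2 to 71.9.

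Ndufs1, the largest core subunit and the member with the longest coding sequence (ENSMUSG00000025968, chr1:63143596-63176833), did not share this pattern. It stood at 110, 80.3 and 99.9 CPM in FL, 103, 59.3 and 127 CPM in ML, and 103, 99.8, 113 and 88.4 CPM in controls. ML 9 was here the lowest library and control 1 lay among the others. The log2 fold change in ML was -0.07 (SE 0.29), and 0.20 without the pair. The length-scaled level of Ndufa7, an accessory subunit, over that of Ndufs1 was 2.27, 5.22 and 4.87 in FL, 5.77, 105 and 7.28 in ML, and 13.5, 3.54, 2.97 and 4.16 in controls.

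Complex II, succinate dehydrogenase, has only nuclear subunits, and its 4 genes took different directions in ML. The flavoprotein Sdha (ENSMUSG00000021577, chr13:74322254-74350280) stood at 484, 421 and 409 CPM in FL, 352, 342 and 406 CPM in ML, and 308, 514, 495 and 496 CPM in controls. Control 1 was its lowest library, and every ML library lay below every FL library. Its log2 fold change in ML was -0.31 (SE 0.28), and -0.40 (SE 0.19) without the pair, the lowest of the 89 members in both.

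The iron-sulfur subunit Sdhb (ENSMUSG00000009863, chr4:140961203-140979193), whose promoter holds the NRF1 core, stood at 156, 222 and 220 CPM in FL, 258, 750 and 318 CPM in ML, and 352, 200, 178 and 213 CPM in controls. All 3 ML libraries lay above the FL libraries and above controls 2 to 4, and control 1 lay above ML 8 and ML 10. In ML the log2 fold change was 0.91 (SE 0.40; edgeR adjusted p 0.305), and 0.55 (SE 0.22) without the pair. The membrane anchors Sdhc and Sdhd, which bind ubiquinone, had 0.49 (SE 0.27) and 0.82 (SE 0.47) in ML, and 0.45 and 1.04 without the pair. Sdhd also had the lowest p of complex II in FL, at -0.41 (SE 0.48), and 0.22 without the pair.

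Scaled for length, Sdhb over Sdha was 0.821, 1.34 and 1.36 in FL, 1.86, 5.57 and 1.99 in ML, and 2.90, 0.987, 0.912 and 1.09 in controls. The 3 ML libraries and control 1 thus held the 4 highest ratios. These are ratios of mRNA, and the equal number of the 2 subunits in the complex is one of protein. The same libraries held the 4 highest medians of tested genes with an mRNA under 1000 bases. These were 0.08, 1.40 and 0.34 in ML and 0.49 in control 1, as log2 deviations from the control mean. The part of mRNA length in the ratio was not tested.

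**Figure D3:**
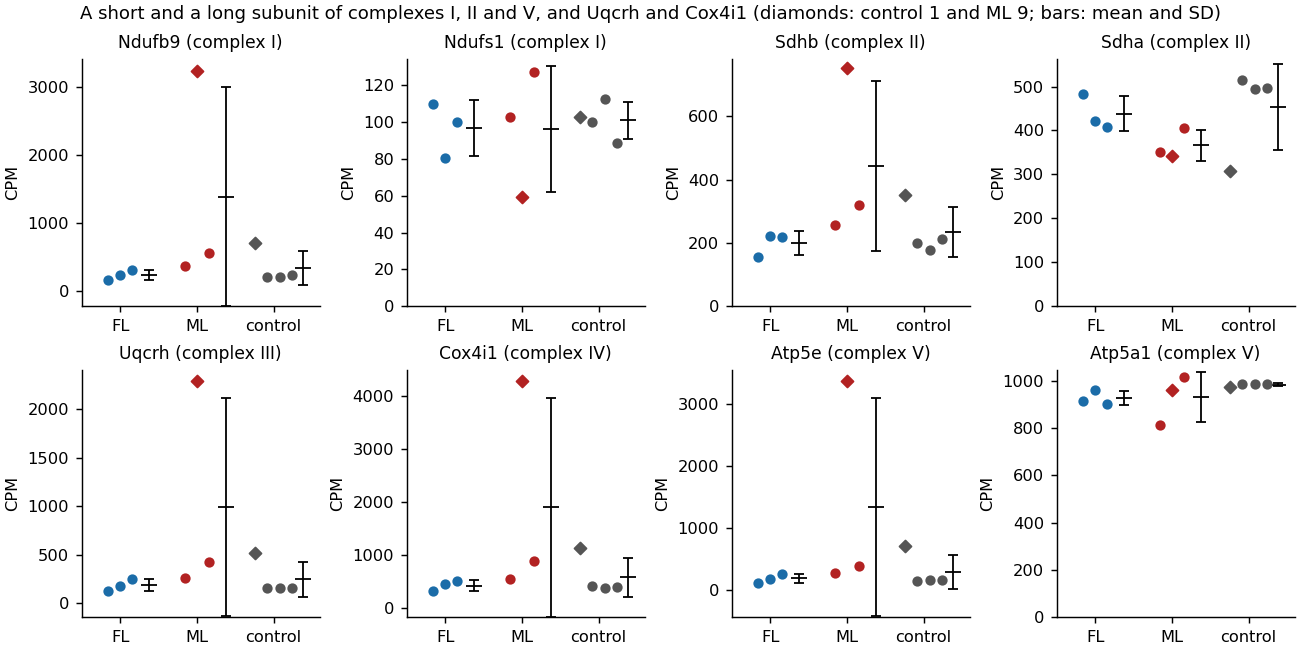
CPM of 8 subunits in FL, ML and control libraries, with diamonds for ML 9 and control 1 and bars for the mean and SD of each group. Ndufb9, Sdhb, Uqcrh, Cox4i1 and Atp5e are highest in ML 9, at 3240, 750, 2288, 4283 and 3366 CPM, while Ndufs1, Sdha and Atp5a1 are not.

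Complex III, the cytochrome bc1 complex, had 7 members, all above 0 in ML at a median of 1.68 and all below 0 in FL at a median of -0.39. Without the pair, all 7 lay above 0 in ML at a median of 0.91, all 7 had an unadjusted p under 0.05 (12.4% of all genes), and all 7 lay above controls 2 to 4 without overlap (23.7% of all genes). The hinge protein Uqcrh (ENSMUSG00000063882, chr4:116066965-116075071) stood at 129, 181 and 252 CPM in FL, 261, 2288 and 426 CPM in ML, and 521, 154, 158 and 159 CPM in controls. Its log2 fold change in ML was 2.00 (SE 0.70), and 1.14 (SE 0.30) without the pair. FL 7 and ML 8 lay close together, with the other FL libraries below them.

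The small subunits Uqcr10 and Uqcr11 had 1.95 (SE 0.70) and 1.83 (SE 0.73) in ML, and 1.10 and 0.91 without the pair, and Uqcr11 had the highest length-scaled level of complex III at 902 CPM per kilobase. Uqcrq, a small subunit, had the lowest p of complex III in FL at -0.71 (SE 0.73), and 0.08 without the pair. The Rieske protein Uqcrfs1 and the core protein Uqcrc2, the members of complex III with the longest coding sequence, had the 2 smallest log2 fold changes of that complex in ML, 0.32 and 0.43. Uqcrc1, the other core protein, is missing from the members because it had 1 count in the whole table, in control 3. Why it had so few was not tested, and the count is not read as its level in liver.

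Complex IV, cytochrome c oxidase, had 12 members including Ndufa4, which was first described in complex I. All 12 lay above 0 in ML, at a median of 1.35, or 0.88 without the pair, where all 12 lay above controls 2 to 4 without overlap, against 23.7% of all genes. All 12 lay below 0 in FL, at a median of -0.42, or 0.07 without the pair, with 11 above 0. Cox4i1, the main isoform of the regulatory subunit 4 (ENSMUSG00000031818, chr8:120668222-120674207), was the highest of complex IV at 1244 CPM per kilobase over the 10 libraries, while without the pair it stood at 647 and Ndufa4 at 650.1. It stood at 309, 440 and 503 CPM in FL, 536, 4283 and 889 CPM in ML, and 1133, 404, 381 and 394 CPM in controls. ML 8 lay just above FL 7, and control 1 above ML 10. In ML Cox4i1 had a log2 fold change of 1.72 (SE 0.65), and 0.86 (SE 0.27) without the pair. Cox6c had the lowest p of complex IV in FL, at -0.84 (SE 0.63), and 0.02 without the pair. Ndufa4 had 1.07 (SE 0.61) in ML, and 1.14 (SE 0.28) without the pair.

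Several subunits of complex IV have a general isoform and one made mainly in heart and skeletal muscle, and the pair Cox7a1 (muscle) and Cox7a2 (liver) is shown because Cox7a1 stood furthest above controls 2 to 4 in ML 9. Their coding sequences (GENCODE M21, GRCm38) are given 5′ to 3′, with capitals for bases that are identical between them, 152 of 243 aligned bases.
Cox7a1, chr7:30184144-30186078, plus strand: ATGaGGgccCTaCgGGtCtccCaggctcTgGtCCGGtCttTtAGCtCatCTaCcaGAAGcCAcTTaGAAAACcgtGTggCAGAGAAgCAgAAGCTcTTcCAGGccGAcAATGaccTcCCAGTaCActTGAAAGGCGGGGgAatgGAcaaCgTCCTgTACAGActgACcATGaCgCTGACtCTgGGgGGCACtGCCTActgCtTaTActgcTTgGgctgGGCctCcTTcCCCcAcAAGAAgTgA
Cox7a2, chr9:79755361-79759878, minus strand: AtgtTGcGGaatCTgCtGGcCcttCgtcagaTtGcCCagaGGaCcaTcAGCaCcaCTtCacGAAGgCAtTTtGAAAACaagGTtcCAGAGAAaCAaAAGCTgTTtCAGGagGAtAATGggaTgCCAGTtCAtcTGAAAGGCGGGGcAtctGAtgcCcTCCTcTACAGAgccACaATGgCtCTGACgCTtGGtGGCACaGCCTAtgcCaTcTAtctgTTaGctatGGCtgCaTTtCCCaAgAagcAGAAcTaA

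Cox7a1 reached the minimum of 1000 counts only through ML 9, which held 951 of its 1449 counts and left 498 in the other libraries, so its values are a description. Cox7a1 (ENSMUSG00000074218) stood at 0.667, 1.01 and 1.34 CPM in FL, 2.65, 62.0 and 2.95 CPM in ML, and 4.90, 0.917, 1.35 and 0.650 CPM in controls. ML 9 stood far above every other library, and control 1 was the next highest. For ML the fit gave a log2 fold change of 3.56 (SE 1.06), and 1.53 (SE 0.42) without the pair. Cox7a2 (ENSMUSG00000032330) stood at 101, 135 and 172 CPM in FL, 188, 1160 and 293 CPM in ML, and 334, 117, 128 and 120 CPM in controls, with a log2 fold change in ML of 1.65 (SE 0.59), and 0.99 (SE 0.27) without the pair.

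The muscle isoforms Cox8b and Cox6a2 did not reach 1000 counts and are not members. Cox8b had 601 of its 658 counts in ML 9 and 41 in control 3, and Cox6a2 had 177 of its 195 counts in ML 9. The muscle creatine kinase Ckm had 1370 counts in ML 9 and 0 in the other 9 libraries, Acta1 had 761 against 0 to 5, Myh4 156 against 0 to 2 and Myl2 126 against 0. The part of these muscle transcripts in the values of ML 9 was not tested. The general isoforms Cox6a1, Cox6b1 and Cox8a had log2 fold changes of 1.13, 1.42 and 1.27 in ML, and 0.44, 0.54 and 0.57 without the pair. Cox4i2 and Cox6b2, isoforms of lung and testis, had 34 and 75 counts in all, Ndufa4l2 had 392, and Cox7b2 and Cox8c had 1 and 0.

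**Figure D4:**
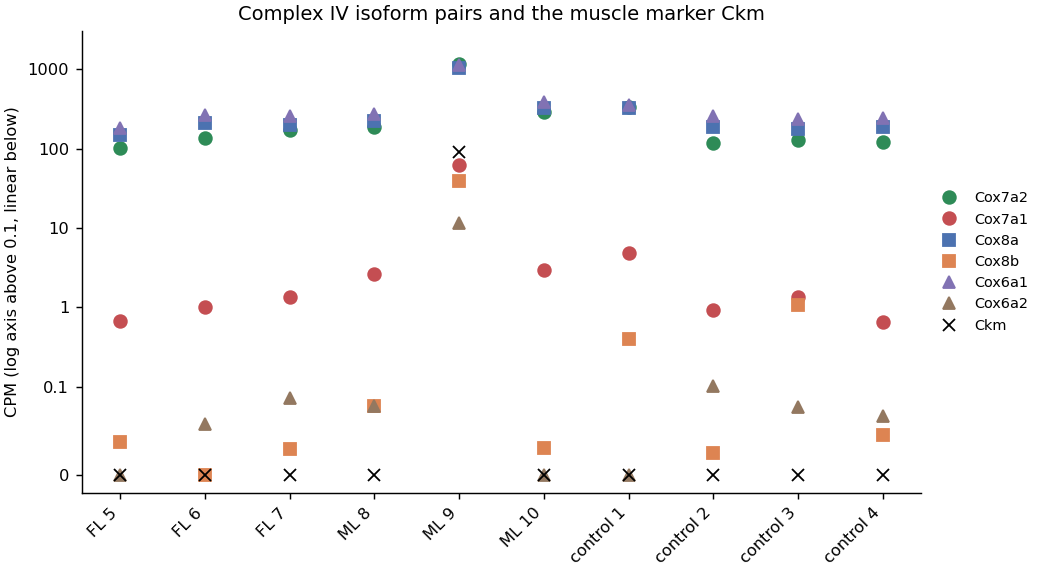
CPM of general and muscle isoforms of complex IV subunits and of the muscle marker Ckm in each library, on an axis that is logarithmic above 0.1 and linear below. Cox7a1, Cox8b and Cox6a2 stand at 62.0, 39.2 and 11.5 CPM in ML 9, where Ckm is at 89.3 CPM, while Ckm is at 0 in the other 9 libraries.

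Complex V, the ATP synthase, had 16 members, of which 15 lay above 0 in ML at a median of 1.08, and all 16 below 0 in FL at a median of -0.29. Without the pair these medians were 0.70 and 0.09. The epsilon subunit Atp5e (ENSMUSG00000016252, chr2:174461072-174464105) has the shortest coding sequence of the members and averaged 1352 CPM per kilobase over the 10 libraries, the highest of all members. That rank rested on ML 9 and control 1: without the pair Atp5g3, at 688 CPM per kilobase, was the highest of complex V, and length-scaled Atp5e over Atp5b was 0.453, 0.699 and 0.967 in FL, 1.04, 8.51 and 1.15 in ML, and 2.92, 0.532, 0.565 and 0.578 in controls. It stood at 110, 175 and 255 CPM in FL, 262, 3366 and 383 CPM in ML, and 706, 140, 148 and 149 CPM in controls. ML 9 lay far above the next library, control 1, and FL 7 lay close to ML 8. For Atp5e the log2 fold change in ML was 2.23 (SE 0.86), and 1.15 (SE 0.32) without the pair.

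The catalytic-head subunit Atp5a1 (ENSMUSG00000025428), with one of the longest coding sequences, stood at 918, 964 and 903 CPM in FL, 813, 962 and 1018 CPM in ML, and 974, 988, 989 and 987 CPM in controls. The FL libraries lay below the controls without overlap, and ML 8 was the lowest library. Its log2 fold change was -0.09 (SE 0.24) in FL and -0.08 (SE 0.24) in ML. Length-scaled Atp5e over Atp5a1 was 0.701, 1.06 and 1.65 in FL, 1.89, 20.5 and 2.21 in ML, and 4.25, 0.832, 0.880 and 0.884 in controls.

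Atp5mpl and Atp5o, a small membrane subunit and the stalk protein that confers oligomycin sensitivity, had the lowest p of complex V in ML, at 1.69 (SE 0.56) and 1.49 (SE 0.50), and 0.78 and 0.71 without the pair. Atp5l, the g subunit, had the lowest p in FL at -0.77 (SE 0.69), and 0.24 without the pair. The genes Atp5g1, Atp5g2 and Atp5g3 encode the same mature c subunit of the rotor. They had log2 fold changes in ML of 1.26 (SE 0.49), 0.81 (SE 0.33) and 0.48 (SE 0.35), and of 0.60, 0.49 and 0.51 without the pair.

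The 12 assembly factors had a median of 13.0 CPM per kilobase over the 10 libraries, against medians of 148 to 547 for the subunits of complexes I to V, and 10.9 against 106 to 347 without the pair. All 12 lay above 0 in ML, at a median of 0.95, or 0.94 without the pair. In FL, 9 of 12 lay below 0 at a median of -0.25, and without the pair 10 of 12 lay above 0 at a median of 0.24. Ndufaf4, a complex I assembly factor (ENSMUSG00000028261, chr4:24898083-24905001), stood at 39.4, 48.4 and 52.0 CPM in FL, 51.2, 79.0 and 63.0 CPM in ML, and 64.9, 27.4, 31.2 and 25.6 CPM in controls. All FL and ML libraries lay above controls 2 to 4 and, except for ML 9, below control 1. Without the pair its log2 fold change was 0.73 (SE 0.20) in FL (edgeR adjusted p 0.461) and 1.03 (SE 0.21) in ML (edgeR adjusted p 0.0954).

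Sdhaf2, which attaches the flavin to Sdha, stood at 28.4, 28.1 and 39.7 CPM in FL, 40.5, 84.7 and 42.6 CPM in ML, and 51.7, 20.4, 21.9 and 22.9 CPM in controls. Without the pair its log2 fold change was 0.57 (SE 0.20) in FL and 0.94 (SE 0.22) in ML. Ndufaf4, Sdhaf2, Ndufa7, Ndufa10, Ndufaf1, Atp5b, Uqcrfs1 and Uqcrc2 were chosen for naming after their values were seen. Ndufaf3, the partner of Ndufaf4, had the lowest p of the assembly factors in ML with all libraries, at 0.97 (SE 0.39), and Ndufaf5, which modifies Ndufs7, in FL, at -0.59 (SE 0.62), and 0.27 without the pair. Cox7a2l, which joins complexes III and IV into supercomplexes, had 0.89 (SE 0.41) in ML, and 0.81 (SE 0.22) without the pair.

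The size of the difference in ML followed the length of the gene product. Across the 89 members, the log2 fold change in ML against control had a Pearson r of -0.62 and a Spearman rho of -0.57 with log2 coding length, and across 12842 tested coding genes r was -0.51 and rho -0.54. Without the pair these were -0.59 and -0.51 for the members and -0.42 and -0.49 for all genes. With log2 mRNA length instead, r and rho were -0.60 and -0.60 for the members and -0.40 and -0.495 for all genes. Without the pair the values for mRNA length were weaker, at -0.37 and -0.34 for the members and -0.20 and -0.35 for all genes. The points share the same libraries and are a description across genes, which are not independent replicates. The medians of the members lay above those of all tested genes of the same mRNA length class. These classes include non-coding genes: 14750 tested genes had an mRNA length and 12842 a coding length. They were not matched to the members on coding length. Under 1000 bases, the 52 members had a median of 1.32 in ML against 0.89 for 1972 genes, and 0.81 against 0.57 without the pair. From 1000 to 2000 bases, the 27 members had 0.89 against 0.26 for 3336 genes, and 0.63 against 0.19 without the pair. From 2000 to 4000 bases, the 9 members had 0.49 against -0.11 for 5555 genes, and 0.45 against -0.10 without the pair. With a trend on mRNA length and GC content removed from each library, the median over the members was 0.51 in ML and -0.14 in FL. The part of RNA or library quality in this relation was not tested.

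**Figure D5:**
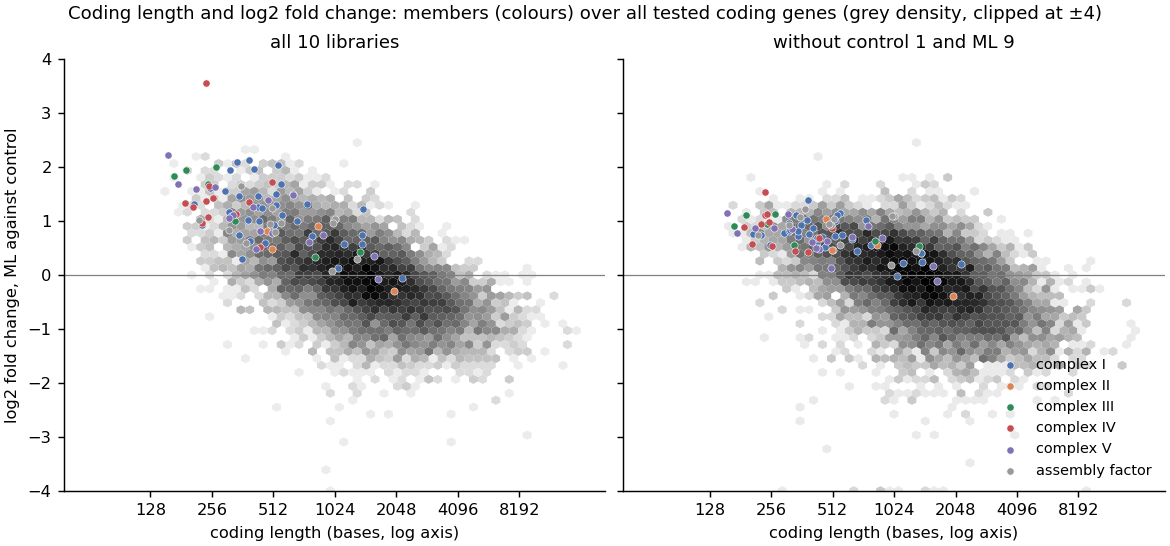
The log2 fold change in ML against control is plotted against coding length (log axis), with the 75 subunits and 12 assembly factors in colours over the density of all tested coding genes in grey. With all 10 libraries (left) r over the 89 members is -0.62, and without control 1 and ML 9 (right) it is -0.59.

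FL against ML asks how offspring of a LIRKO father differ from offspring of a LIRKO mother. No member passed the adjusted threshold, which 0.00675% of genes passed, and the lowest edgeR adjusted p of a member was 0.238. Of the 89 members, 87 lay below 0, at a median log2 fold change of -1.44, against 0.04 over all genes. An unadjusted p under 0.05 in the lower direction was found for 67 members, against 12.4% of genes, and 70 lay below all 3 ML libraries without overlap, against 15.1% of genes. DESeq2 called none, with a lowest adjusted p of 0.0649.

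Without control 1 and ML 9 the median was -0.65 and 87 members again lay below 0. Then 57 had an unadjusted p under 0.05 and were lower, against 8.69% of genes, and 71 lay below ML 8 and ML 10 without overlap, against 18.6% of genes. No member passed, against 0.00657% of genes. Without ML 9 alone, the median was -0.67 and no member had an unadjusted p under 0.05 in the lower direction, against 2.05% of genes. Ndufb9, Sdhb, Uqcrh, Atp5mpl and Ndufaf3 had the lowest p of their complexes or of the assembly factors. Their log2 fold changes were -2.54 (SE 0.79), -1.15 (SE 0.44), -2.40 (SE 0.79), -1.96 (SE 0.62) and -1.18 (SE 0.42). For complex IV it was Cox7a1, at -4.47 (SE 1.24). Cox7a1 was a member only through ML 9, so its value is a description. Sdha went the other way, with every FL library above every ML library, at 0.26 (SE 0.29).

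By complex, the medians of FL against ML were -1.42 for complex I, -0.87 for II, -2.34 for III, -1.81 for IV and -1.46 for V, and -0.65, -0.49, -0.74, -0.79 and -0.63 without the pair. The 2 comparisons against controls share the control libraries, so their values are set side by side here and no likeness between them was measured.

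Other genes of the pathway were described in the same fit, and none passed the adjusted threshold in any of the 3 comparisons with edgeR or DESeq2. Of 33 tested assembly factors of other names, 28 lay above 0 in ML at a median of 0.47, and 8 had an unadjusted p under 0.05, all higher, against 8.81% of all genes. Without the pair these were 28, 0.51 and 15, against 12.4% of all genes. Of 9 further genes, most of which carry electrons, adenine nucleotides or phosphate, 7 lay above 0 in ML at a median of 0.35. At an unadjusted p under 0.05, 3 were higher and 1 lower, against 8.81% and 7.33% of all genes. Without the pair 6 lay above 0 at a median of 0.35, with 4 higher and 1 lower, against 12.4% and 15.1% of all genes. The 9 include Cyc1, a complex III subunit without a member's symbol, at 1.17 (SE 0.47) in ML and 0.63 without the pair. The 1 lower gene was each time Cyb5r3, a reductase of cytochrome b5, at -0.74 (SE 0.32) and -0.82. Both were named after their values were seen. Of 14 genes of the citric acid cycle, 9 lay above 0 in ML at a median of 0.12, and none had an unadjusted p under 0.05. Without the pair the median was 0.22, and 2 were higher (Idh2 at 0.57 and Suclg1 at 0.58) and 2 lower (Cs at -0.71 and Ogdh at -0.95) at an unadjusted p under 0.05, against 12.4% and 15.1% of all genes. These 4 were named after their values were seen. The 83 cytosolic ribosomal protein genes, which are also short, had a median of 1.55 in ML with all 83 above 0, and 0.91 over the 82 tested without the pair.

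The 13 protein genes of the mitochondrial genome, which supply further subunits of complexes I, III, IV and V, lay apart from the nuclear subunits. Their median in ML was -0.07 with 5 of 13 above 0, against 1.16 for the 75 nuclear subunits, and -0.54 with 3 of 13 above 0 without the pair, against 0.72. Their share of counts was 4.46, 5.04 and 3.71% in FL, 3.70, 2.67 and 2.81% in ML, and 3.00, 5.47, 4.65 and 5.16% in controls. Control 1 and the ML libraries held the 4 lowest shares of raw counts. After TMM scaling ML 9 went the other way: the median log2 deviation of the 13 genes from the control mean was 0.57 there, the highest of the 10 libraries, against -0.41 in ML 8 and -0.38 in ML 10, -0.37 to -0.0057 in FL and -0.30 in control 1. Within ML 9, mt-Cytb was the highest of all libraries at 14120 CPM, and mt-Co1 the lowest at 4408 CPM; both were named after their values were seen. In FL all 13 lay below 0, at a median of -0.19, and -0.29 without the pair.

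The transcriptional regulators of the pathway did not share one direction. The coactivators Ppargc1a and Ppargc1b had log2 fold changes of -0.69 (SE 0.47) and -1.38 (SE 0.73) in ML, and -0.35 and -1.21 without the pair. Ppargc1a had -1.27 (SE 0.48) in FL, and -1.31 without the pair, with 3.33, 5.47 and 3.09 CPM in FL against 8.49, 13.8, 8.10 and 7.78 CPM in controls. Its FL libraries lay below every control without overlap, as did 2.92% of all genes. Among the 7 regulators the lowest edgeR adjusted p in FL was 0.9997, and 0.461 without the pair. Regulators were named for ML, and this FL value was chosen after the values were seen. The nuclear receptor Esrra, which binds many of these genes, had 1.08 (SE 0.51) in ML, and 1.12 (SE 0.40) without the pair. It stood at 49.1, 130 and 68.7 CPM in ML and 75.1, 18.7, 36.9 and 26.1 CPM in controls. Nrf1, Gabpa, Yy1 and Tfam, which maintains mitochondrial DNA, had -0.45, -0.13, 0.07 and 0.25 in ML, and -0.37, 0.36, 0.33 and 0.63 without the pair.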

How the data were processed

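Liver RNA was sequenced as 10 libraries. The authors deposited 1 table of whole-number read counts per gene, made with STAR and featureCounts on GRCm38, per the submitters' processing notes. For versions, annotation and strand setting: not given in the sources used here. The kit was directional, per the labels' protocols. Ensembl ids were matched to GENCODE M21; 842 of 46071 rows, holding at most 0.066% of a library's counts, did not match. CPM values were computed from the counts with TMM normalisation.

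Groups were compared with edgeR 4.0.16 (R 4.3.3) by its robust quasi-likelihood test, fitted on all 10 libraries and 14820 genes that passed filterByExpr (minimum count 10), with p-values adjusted over all genes by Benjamini-Hochberg. SE is the log2 fold change divided by the square root of F. The fit was repeated without control 1 and ML 9 (15223 genes). Alternatives were DESeq2 1.42.0, its size factors in the edgeR fit, no count filter, the libraries of the compared groups alone, no minimum count for members, each library left out, and removal from each library of a trend on GC content and exon length. The same trend on mRNA length, alone and without control 1 and ML 9, was chosen after seeing the data. The test was tested on simulated data. Length-scaled levels are CPM per kilobase of mRNA.

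Per complex, named subunits were the 2 with the lowest p in ML, the 1 with the lowest p in FL, the 1 with the lowest p in FL against ML and the highest length-scaled level. Members below 0 in ML, the assembly factors with the lowest p, isoform groups and 7 regulators were also named. The members and lists were chosen with earlier results of these data known.

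No 2 libraries of a group agreed within sampling noise: the chi-square per degree of freedom of their counts was 87.6 or more. Depth ranged from 18655506 to 39379940 counts, and no member had under 18 counts in any library. Another gene, including overlapping neighbours and shared repeats, carries a stretch of 100 bases or more at 95% identity or more for 40 of the 89 members.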

Additional observations from a re-analysis of the deposited data

Results flagged for a closer look

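In the control group, 1 library stood further from the others than Dixon's 95% critical value for 4 samples allows in 34 of the 45 values examined, and in 33 of these it was control 1. Chance flags about 1 in 20 groups, but the values examined here share the same 4 control libraries and are not independent. Over all 89 members, a control stood apart for 73, and for 70 of these it was control 1 as the highest library. FL and ML, with 3 libraries each, were not examined.

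In complex I, control 1 stood apart with 180.5 CPM of Ndufb7, 261.0 CPM of Ndufc2 and 711.3 CPM of Ndufb9. In complex II it did so with 249.8 CPM of Sdhc and 531.6 CPM of Sdhd, and, as the lowest control, with 308.4 CPM of Sdha. In complex III the values were 521.0 CPM of Uqcrh, 328.4 CPM of Uqcr10, 1048 CPM of Uqcrq and 529.1 CPM of Uqcr11. In complex IV they were 4.9 CPM of Cox7a1, 333.5 CPM of Cox7a2, 868.0 CPM of Cox6c, 1133 CPM of Cox4i1, 353.7 CPM of Cox6a1, 385.2 CPM of Cox6b1, 321.9 CPM of Cox8a and 1264 CPM of Ndufa4. In complex V they were 148.8 CPM of Atp5mpl, 247.6 CPM of Atp5o, 347.5 CPM of Atp5l, 705.8 CPM of Atp5e, 265.5 CPM of Atp5g1, 64.96 CPM of Atp5g2 and 858.1 CPM of Atp5g3, and, as the lowest control, 974.0 CPM of Atp5a1.

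Control 1 also stood apart with 21.94 CPM of Ndufaf5, 158.0 CPM of Cox7a2l and 80.74 CPM of the regulator Tfam, and, as the lowest control, with 1.197 CPM of Ppargc1b. Ppargc1a stood apart in control 2, at 13.83 CPM. As a share of all counts, control 1 stood apart for the members together (2.523%), for complex III (0.3183%) and for complex IV (0.5874%).

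Outside the members, the muscle isoforms Cox8b and Cox6a2 reached 39.19 and 11.54 CPM in ML 9, above their level in every control. Muscle markers were high in the same library, and their part in these values was not tested.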

How the results depend on the processing

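No member passed an adjusted p of 0.05 in any comparison under any alternative run. The direction of FL against control turned without control 1 and ML 9: the median became 0.10 over all members, and 0.10, 0.014, 0.10, 0.075 and 0.091 for complexes I to V. With the mRNA length trend also removed, the medians were 0.078 over all members and 0.078, 0.063, 0.11, 0.026 and 0.085 by complex. With 1 library left out at a time, the FL median ranged from -0.41 to 0.094 over all members, from -0.38 to 0.095 for complex I, from -0.26 to 0.0095 for II, from -0.63 to 0.097 for III, from -0.60 to 0.072 for IV and from -0.42 to 0.086 for V, and the high end was in each case without control 1. Among single genes in FL, Ndufc2 became 0.10 without the pair and 0.084 with the trend also removed (-0.86 to 0.10 with 1 library left out), Sdhd 0.22 and 0.22 (-0.65 to 0.21), Uqcrq 0.083 and 0.10 (-0.91 to 0.079), Cox6c 0.016 without the pair (-1.05 to 0.011), Atp5l 0.24 and 0.11 (-1.01 to 0.24) and Ndufaf5 0.27 and 0.19 (-0.84 to 0.26). In ML against control the median over members ranged from 0.32 without ML 9 to 1.56 without control 1. Atp5a1 became 0.032 with the trend removed and 0.22 without the pair as well (-0.16 to 0.0067 with 1 library left out), and Atp5g3 became -0.047 with the trend removed. Ndufs1 became 0.22 with the exon length trend removed, 0.20 without the pair and 0.20 with both changes (-0.32 to 0.20). Gabpa became 0.13 with the trend removed, 0.36 without the pair and 0.49 with both (-0.36 to 0.16), and Yy1 ranged from -0.090 to 0.40. The FL against ML median was -0.61 with the trend removed, -0.65 without the pair, -0.45 with both, and -1.77 to -0.67 with 1 library left out. The cause of these shifts was not tested. Each member had 18 counts or more in every library, and the part of depth was not tested. Control 1, FL 5 and ML 9 had the fewest counts in all, at 18655506, 23192571 and 26614915. No paired analysis was possible because the replicate numbers run from 1 to 10 and no 2 groups share any.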
